A study of Homo sapiens with 18 samples.

Results

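The mRNAs of G3BP1, G3BP2, CAPRIN1 and UBAP2L, which encode the core scaffold of stress granules and its close partners, were followed through RNA immunoprecipitates and total RNA of arsenite-treated astrocytoma cells. The members were the 4 listed symbols among 14232 genes with a transcript cluster (the row of an exon array that sums the probes of a gene) of a single symbol, and each had exactly 1 such row: 2835960 for G3BP1, 2773756 for G3BP2, 3326183 for CAPRIN1 and 2360083 for UBAP2L. RNA from U251-MG, an established human astrocytoma line grown in medium with 10% serum, was measured on 18 Affymetrix exon arrays in 6 groups of 3 biological replicates. Stress was 30 min of arsenite at 500 µM, which triggers oxidative stress and a halt of translation, and unstressed cells had DMSO for the same time. From each condition the RNA came from the input lysate, from an immunoprecipitate (RIP) with an antibody to TIAR, which some labels call Tial after the gene TIAL1, or from a RIP with an antibody to G3BP1. Thus the protein product of a member was itself the bait in 2 of the groups. A RIP with a non-specific antibody was not analysed here, so RNA that adheres to beads is part of every RIP value.

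G3BP1 and G3BP2 are paralogous RNA-binding proteins that condense with untranslated mRNA when translation stops, and cells lacking both form no stress granules with arsenite. CAPRIN1 binds the NTF2-like domain of the G3BP proteins and favours condensation, while the deubiquitinase USP10 competes for the same surface and opposes it. UBAP2L is an RGG-motif protein that associates with G3BP and is needed for efficient granule assembly. TIAR is a U-rich sequence binder that also enters stress granules.

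Values are log2 signals made by the authors with RMA, so a difference of 1 is a doubling. They describe the share of an mRNA within a sample, whatever the total yield of a RIP was, and the level of a row cannot be set against that of another row. The array medians ran from 7.73 to 8.07, and the mean correlation of an array with its own group from 0.98 to 0.995. The lowest of these correlations belonged to replicate 1 of the stressed input and replicate 3 of the unstressed G3BP1 RIP, whose medians, 7.73 and 7.80, were also the lowest of their groups. For the comparisons that use a group with one of these arrays, values without both are also given. Of 8 astrocyte and glioma markers, VIM and CD44 lay at the 98.4th and 94.2nd percentile of all rows in input, GFAP at the 58.6th, and S100B and AQP4 at the 12.3rd and 11.5th. NES, SLC1A3 and ALDH1L1 lay at the 65.0th, 55.6th and 38.8th. The epithelial keratins KRT8 and KRT18 were also high, at the 95.4th and 89.1st percentile, while EPCAM was at the 3.67th and CDH1 at the 20.2nd. Of the myeloid markers, PTPRC was at the 4.70th, AIF1 at the 22.4th, CSF1R at the 38.6th and CD14 at the 48.8th. The neuronal markers SYT1, STMN2 and SNAP25 were at the 63.1st, 31.2nd and 30.5th, and the blood markers HBB and ALAS2 at the 27.4th and 31.4th. Every member was well above the middle of the array: by mean signal UBAP2L was at the 98th percentile, CAPRIN1 at the 97.9th, G3BP1 at the 96.3rd and G3BP2 at the 80.3rd.

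**Figure D1:**
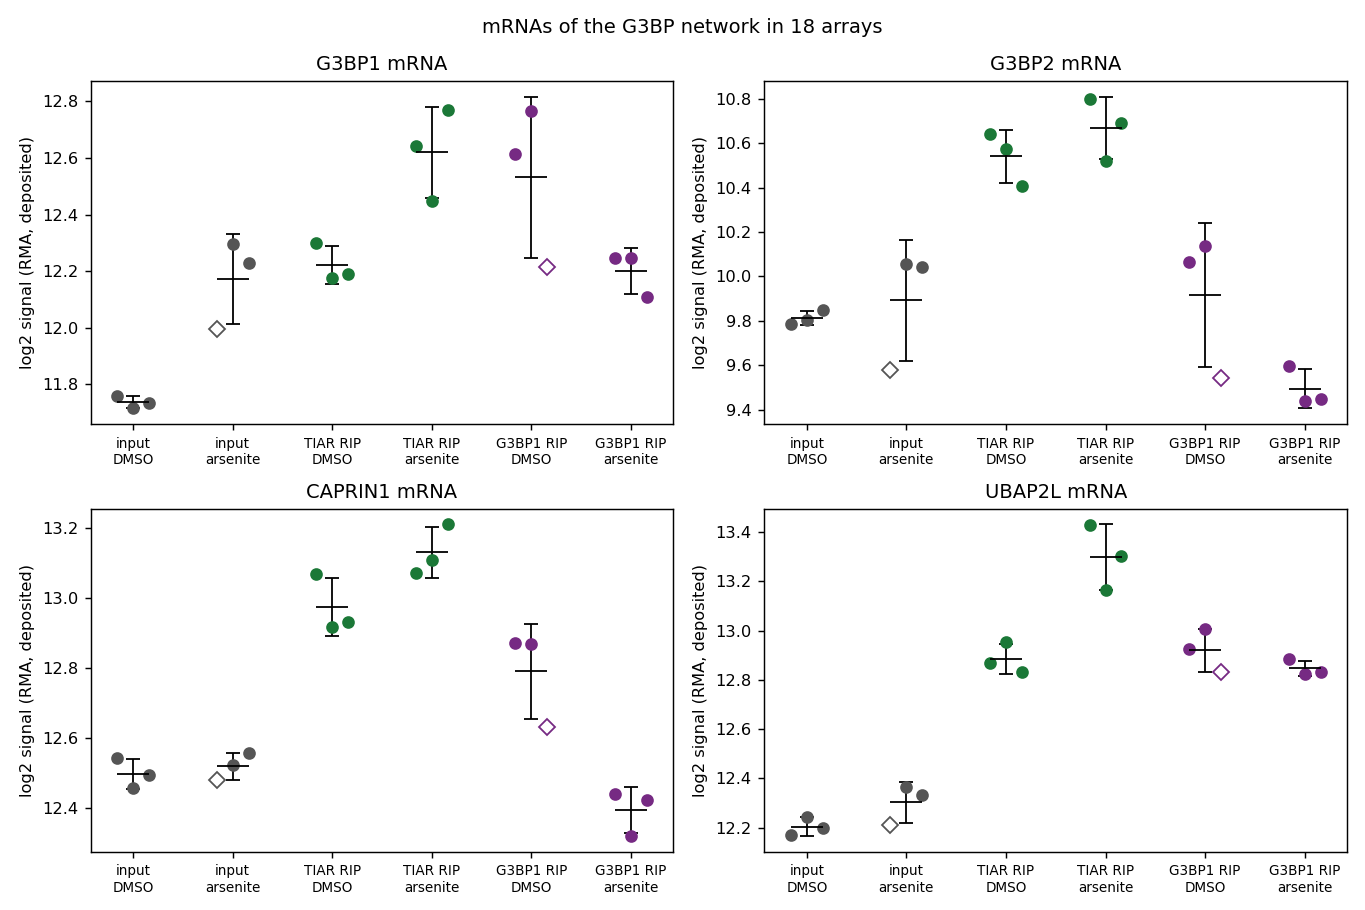
Log2 signal of each member mRNA (vertical axis) in the 6 groups (horizontal axis), with a point for each array, a bar for the mean and whiskers of 1 SD (n = 3). Open diamonds mark replicate 1 of the stressed input and replicate 3 of the unstressed G3BP1 RIP; the stressed TIAR RIP has the highest mean for all 4 mRNAs, and for G3BP2 and CAPRIN1 the stressed G3BP1 RIP has the lowest.

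In all 4 members the stressed TIAR RIP had the highest mean. The share of all rows with that group highest, or with neighbouring groups apart, was not counted. Neither is therefore read as particular to the members. G3BP1 descended from 12.62 ± 0.16 there (SD, n = 3) through the unstressed G3BP1 RIP (12.53 ± 0.29), the unstressed TIAR RIP (12.22 ± 0.07), the stressed G3BP1 RIP (12.20 ± 0.08) and the stressed input (12.17 ± 0.16), all of which overlapped with their neighbours, to the unstressed input (11.74 ± 0.02), which did not. For G3BP2 the order was the stressed and unstressed TIAR RIPs (10.67 ± 0.14 and 10.54 ± 0.12, which overlapped), then the unstressed G3BP1 RIP (9.92 ± 0.33), the stressed input (9.89 ± 0.27) and the unstressed input (9.81 ± 0.03), which overlapped with each other, and last the stressed G3BP1 RIP (9.49 ± 0.09). CAPRIN1 fell from 13.13 ± 0.07 in the stressed TIAR RIP through 12.97 ± 0.08 in the unstressed TIAR RIP, 12.79 ± 0.14 in the unstressed G3BP1 RIP, 12.52 ± 0.04 and 12.50 ± 0.04 in the stressed and unstressed input to 12.39 ± 0.07 in the stressed G3BP1 RIP, and of these neighbours the inputs alone overlapped. UBAP2L was highest in the stressed TIAR RIP (13.30 ± 0.13), lower in the unstressed G3BP1 RIP (12.92 ± 0.09), the unstressed TIAR RIP (12.88 ± 0.06) and the stressed G3BP1 RIP (12.85 ± 0.03), and lowest in the stressed and unstressed input (12.30 ± 0.08 and 12.20 ± 0.04). Its neighbours overlapped except at the steps below the stressed TIAR RIP and above the stressed input.

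Total RNA was compared first, because a change there can carry over into any RIP. On the deposited scale G3BP1 mRNA rose in input with arsenite, and no change passed the test for the other members. Thus 1 of 4 was called, where 13.7% of all 22011 rows were called, 2.52% as higher and 11.2% as lower. The G3BP1 signal was 11.76, 11.71 and 11.73 in the unstressed input and 11.99, 12.30 and 12.23 in the stressed input, so the arrays did not overlap, as was the case for 8.99% of all rows in this direction. The difference was 0.44 ± 0.13 (SE), or 1.35-fold (limma adjusted p = 0.0315), and it lay at the 95.3rd percentile of all rows. For G3BP2 the values were 9.79, 9.80 and 9.85 without and 9.58, 10.06 and 10.04 with arsenite. Its stressed arrays therefore lay on both sides of the unstressed ones, and replicate 1, the low one, is the array that stands apart. The difference was 0.08 ± 0.15 (adjusted p = 0.791), or 0.24 ± 0.09 without both arrays that stand apart (adjusted p = 0.0799). With quantile normalization G3BP2 was called, at 0.30 ± 0.07 (adjusted p = 0.00504), where 1431 of all 22011 rows were called higher. CAPRIN1 measured 12.54, 12.46 and 12.49 without and 12.48, 12.52 and 12.56 with arsenite (difference 0.02 ± 0.08, adjusted p = 0.897). UBAP2L measured 12.17, 12.24 and 12.20 without and 12.21, 12.37 and 12.33 with it (0.10 ± 0.08, adjusted p = 0.476). Both pairs of groups overlapped, and without both arrays the differences were 0.04 and 0.15 (adjusted p = 0.735 and 0.204).

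The rise of G3BP1 in input was close to the threshold on the deposited scale. Leaving out any of 5 arrays (replicates 2 and 3 of the stressed input and each of the 3 unstressed input replicates) left a difference of 0.38 to 0.45 with adjusted p between 0.0785 and 0.103, while leaving out both arrays that stand apart gave 0.53 ± 0.09 (adjusted p = 0.00119) and a fit of the input arrays alone gave adjusted p = 0.0586. After median centring it was 0.53 ± 0.09 (adjusted p = 0.000908), and with quantile normalization 0.46 ± 0.09 (adjusted p = 0.0017). In these 2 settings 1255 and 1431 of all rows were called higher, beside 554 on the deposited scale.

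G3BP1 was the member called higher in total RNA on the deposited scale, and CAPRIN1 had the smallest difference there. For this reason the 250 bases before their annotated starts are shown, from RefSeq on GRCh38.p14, on the plus strand, 5′ to 3′. Capitals mark CCAAT, the core of the CCAAT box, read on either strand.
G3BP1, chr5:151771704-151771953: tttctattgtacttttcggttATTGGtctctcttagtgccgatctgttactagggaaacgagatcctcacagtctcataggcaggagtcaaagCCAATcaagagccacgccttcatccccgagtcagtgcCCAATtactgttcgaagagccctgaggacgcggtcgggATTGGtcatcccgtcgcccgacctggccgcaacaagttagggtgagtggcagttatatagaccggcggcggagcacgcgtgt
CAPRIN1, chr11:34051481-34051730: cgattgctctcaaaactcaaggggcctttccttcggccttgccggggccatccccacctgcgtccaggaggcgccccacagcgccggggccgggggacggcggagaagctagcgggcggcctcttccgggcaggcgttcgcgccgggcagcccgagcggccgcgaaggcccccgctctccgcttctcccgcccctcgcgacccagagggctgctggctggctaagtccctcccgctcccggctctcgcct

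The G3BP1 window held 4 matches to CCAAT, which begin 229, 157, 120 and 82 bases before the start. Of 35116 listed starts, 32.0% had at least 1 match in the same window and 0.874% had 4 or more. The cut of 4 is the count of G3BP1 itself, and CCAAT was 1 of several motifs searched. The share is therefore a description and no test. The CAPRIN1 window had 0 matches to CCAAT and 2 to the GC box GGGCGG, which 42.6% of starts held, whereas G3BP1 had 0 of these. The AP-1 site TGACTCA, found at 4.2% of starts, had 0 matches in either window. The same held for the cAMP response element TGACGTCA, found at 1.6% of starts. Each motif was searched on both strands. The E-box CACGTG, at 6.3% of starts, had 0 matches in both. G3BP2 has 5 listed starts, of which 2 had CCAAT, 3 the GC box, 1 the E-box, 1 the cAMP response element and 0 the AP-1 site. UBAP2L has 3 listed starts, of which 0 had CCAAT, 2 the GC box, 2 the E-box, 0 the cAMP response element and 1 the AP-1 site. These matches describe the letters of the windows, and no measurement here bears on what binds them.

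The TIAR RIP held all 4 mRNAs at a higher share than total RNA, in unstressed and in stressed cells. In unstressed cells 4 of 4 members were higher, where 40.6% of all rows were called, 16.8% as higher and 23.8% as lower. G3BP1 measured 12.30, 12.17 and 12.19 in the unstressed TIAR RIP, 0.49 ± 0.13 above input (1.40-fold, adjusted p = 0.00551). G3BP2 measured 10.64, 10.57 and 10.41, above input by 0.73 ± 0.15 (1.66-fold, adjusted p = 0.00109). Every TIAR RIP array of these scaffold mRNAs exceeded every unstressed input array. CAPRIN1 measured 13.07, 12.92 and 12.93, which was 0.48 ± 0.08 above input (1.39-fold, adjusted p = 0.000152). UBAP2L measured 12.87, 12.95 and 12.83, higher by 0.68 ± 0.08 (1.60-fold, adjusted p = 4.5e-06). Again no RIP array overlapped with input; 24.3% of all rows lay wholly above input in this way. The members' differences lay between the 85.1st and the 91st percentile of all rows. Because the median of all rows shifted by 0.17 on median centring of the arrays, the centred differences were larger: 0.66 for G3BP1, 0.90 for G3BP2, 0.65 for CAPRIN1 and 0.85 for UBAP2L.

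In stressed cells 4 of 4 members were again higher in the TIAR RIP than in input, where 43.8% of rows were called, 20.3% as higher and 23.5% as lower. UBAP2L showed the largest difference: its TIAR RIP arrays read 13.43, 13.17 and 13.30, or 1.00 ± 0.08 above stressed input (2.00-fold, adjusted p = 1.31e-07). G3BP2 read 10.80, 10.52 and 10.69, higher by 0.78 ± 0.15 (adjusted p = 0.00064). CAPRIN1 read 13.07, 13.11 and 13.21 and was higher by 0.61 ± 0.08 (adjusted p = 1.47e-05). G3BP1 read 12.64, 12.45 and 12.77 and was higher by 0.45 ± 0.13 (adjusted p = 0.00924). For each of the 4 mRNAs all stressed TIAR RIP arrays lay above all stressed input arrays, as they did for 23.1% of all rows. Without both arrays that stand apart the stressed differences were 0.95 for UBAP2L, 0.62 for G3BP2, 0.59 for CAPRIN1 and 0.36 for G3BP1 (largest adjusted p = 0.0045). All 8 of these calls against input remained under every alternative run.

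The G3BP1 RIP was compared with input next. In unstressed cells 3 of 4 members, G3BP1 itself, CAPRIN1 and UBAP2L, were higher in it than in input, where 39.8% of rows were called, 20.7% as higher and 19.2% as lower, while the arrays of G3BP2 overlapped with input. These comparisons use the same input arrays as those of the TIAR RIP, so the values are given side by side and not correlated. G3BP1 mRNA read 12.61, 12.77 and 12.21 in the unstressed G3BP1 RIP, 0.80 ± 0.13 above input (1.74-fold, adjusted p = 0.000109; 0.49 in the TIAR RIP). UBAP2L read 12.92, 13.01 and 12.83, higher by 0.72 ± 0.08 (1.64-fold, adjusted p = 3.35e-06; 0.68 in the TIAR RIP). CAPRIN1 read 12.87, 12.87 and 12.63, higher by 0.29 ± 0.08 (1.22-fold, adjusted p = 0.00756; 0.48 in the TIAR RIP). None of the arrays of these 3 mRNAs overlapped with input, where 23.2% of all rows lay wholly above it. G3BP2, the paralogue of the bait, read 10.07, 10.14 and 9.54, which spans the input values, and differed by 0.10 ± 0.15 (adjusted p = 0.652; 0.73 in the TIAR RIP). Replicate 3, the array that stands apart, was the lowest of the group for all 4 mRNAs. Without both arrays that stand apart, G3BP2 also passed as higher, by 0.29 ± 0.09 (adjusted p = 0.0155), so that all 4 members were called. The calls over all rows grew as well, from 4546 higher and 4219 lower with all arrays to 6168 and 4740 in that setting. The other members were then at 0.96 for G3BP1, 0.76 for UBAP2L and 0.37 for CAPRIN1. With all arrays kept, G3BP2 was not called after median centring (0.09, adjusted p = 0.598) or quantile normalization (0.01, adjusted p = 0.954). Array weights, which also keep all arrays, gave G3BP2 a call (0.26, adjusted p = 0.00887). A fit of the compared groups alone gave CAPRIN1 an adjusted p = 0.0849.

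In stressed cells, against stressed input, 1 of 4 members was higher in the G3BP1 RIP (UBAP2L) and 1 of 4 lower (G3BP2), where 44.4% of rows were called, 29.3% as higher and 15.2% as lower. UBAP2L read 12.88, 12.83 and 12.83, above input by 0.54 ± 0.08 (1.46-fold, adjusted p = 4.53e-05), with no overlap, as for 33.7% of all rows in this direction. G3BP2 read 9.59, 9.44 and 9.45, below input by 0.40 ± 0.15 (adjusted p = 0.0443), and its highest RIP array exceeded the lowest input array, replicate 1 of the stressed input. G3BP1 mRNA read 12.25, 12.25 and 12.11, a difference from input of 0.03 ± 0.13 (adjusted p = 0.879), with overlapping arrays. CAPRIN1 read 12.44, 12.32 and 12.42, all under the input arrays (as for 19.4% of all rows), with a difference of -0.13 ± 0.08 (adjusted p = 0.216). The scale mattered here, as centring shifted the median of all rows by 0.17: the centred values were 0.38 for UBAP2L (adjusted p = 0.000643), -0.57 for G3BP2 (adjusted p = 0.000445), -0.14 for G3BP1 (adjusted p = 0.206, the direction being turned) and -0.29 for CAPRIN1 (adjusted p = 0.0025). The lower call of G3BP2 was weak on the deposited scale, since it was lost on leaving out any of 11 single arrays: each of the 3 stressed G3BP1 RIP arrays, the 3 unstressed input arrays, stressed input replicates 2 and 3, unstressed TIAR RIP replicates 1 and 2 and stressed TIAR RIP replicate 3 (differences -0.45 to -0.32, adjusted p 0.0513 to 0.149). Without both arrays that stand apart it was -0.56 ± 0.09 (adjusted p = 0.000155), and UBAP2L was at 0.50, G3BP1 at -0.06 and CAPRIN1 at -0.15 (adjusted p = 8.42e-05, 0.602 and 0.0918). With quantile normalization G3BP2 was at -0.83 (adjusted p = 8.17e-08).

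**Figure D2:**
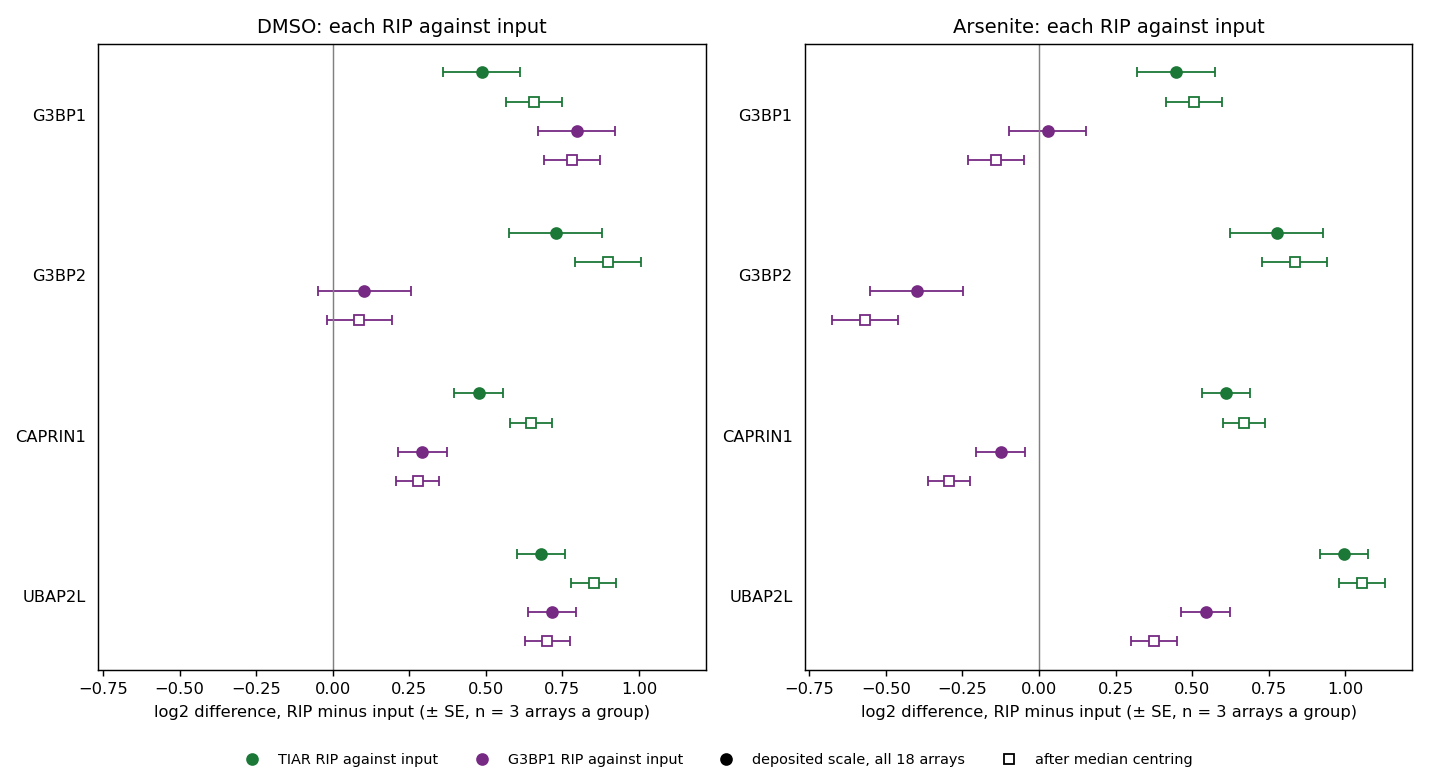
Log2 difference of each RIP from input (horizontal axis, with bars of 1 SE) for the 4 members in DMSO-treated (left) and arsenite-treated cells (right); filled circles use the deposited scale and open squares median-centred arrays. The TIAR RIP differences lie between 0.45 and 1.06 in all cases, while those of the G3BP1 RIP with arsenite run from -0.57 for G3BP2 to 0.54 for UBAP2L.

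Set directly against each other, the RIPs differed for G3BP2 in unstressed cells and for all members in stressed cells. Without stress 1 of 4 members, G3BP2, was higher in the TIAR RIP than in the G3BP1 RIP, by 0.63 ± 0.15 (1.54-fold, adjusted p = 0.00278), where 46.8% of rows were called, 19.3% as higher and 27.5% as lower. Its arrays and those of CAPRIN1 lay wholly above the G3BP1 RIP, as 22.3% of all rows did. G3BP1 mRNA stood on the other side, at -0.31 ± 0.13 (adjusted p = 0.0568). That value passed the threshold without replicate 3 of the unstressed G3BP1 RIP (-0.47 ± 0.11, adjusted p = 0.00164) and without replicate 1 of the stressed input, which is no part of the comparison (-0.31, adjusted p = 0.0449), but was -0.19 without replicate 2 of the unstressed G3BP1 RIP (adjusted p = 0.254) and -0.12 ± 0.09 after median centring (adjusted p = 0.288), which shifts the median of all rows by 0.19. CAPRIN1 was at 0.18 ± 0.08 (adjusted p = 0.0714), at 0.37 ± 0.07 after centring (adjusted p = 0.00027), but at 0.10 without replicate 3 of the unstressed G3BP1 RIP (adjusted p = 0.253) and at 0.08 with array weights (adjusted p = 0.204). UBAP2L was at -0.04 ± 0.08 (adjusted p = 0.763), and at 0.15 ± 0.07 after centring (adjusted p = 0.11), so its sign turned with the scale. Without both arrays that stand apart G3BP2 was at 0.44 (adjusted p = 0.000812) and UBAP2L at -0.08 (adjusted p = 0.397).

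With stress 4 of 4 members were higher in the TIAR RIP than in the G3BP1 RIP, where 44.3% of rows were called, 15.6% as higher and 28.7% as lower. G3BP2 differed most, by 1.18 ± 0.15 (2.26-fold, adjusted p = 1.03e-05), at the 96.1st percentile of all rows. CAPRIN1 differed by 0.74 ± 0.08 (1.67-fold, adjusted p = 1.48e-06), UBAP2L by 0.45 ± 0.08 (1.37-fold, adjusted p = 0.00019) and G3BP1 by 0.42 ± 0.13 (1.34-fold, adjusted p = 0.0127). In each case the lowest TIAR RIP array lay above the highest G3BP1 RIP array, against 22.4% of all rows. Median centring, which shifts all rows by 0.23, raised these to 1.40, 0.96, 0.68 and 0.65. The G3BP1 call was lost without stressed TIAR RIP replicate 3 (0.34, adjusted p = 0.0641) and without stressed G3BP1 RIP replicate 3 (0.37, adjusted p = 0.0517).

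Within the TIAR RIP arsenite raised UBAP2L mRNA, the 1 of 4 members called on the deposited scale, where 11.9% of rows were called, 6.15% as higher and 5.71% as lower. The rise was 0.42 ± 0.08 (1.33-fold, adjusted p = 0.00249), and the 3 stressed arrays exceeded the 3 unstressed ones, as in 15.3% of all rows. G3BP1 differed by a similar amount with a larger error, 0.40 ± 0.13 (adjusted p = 0.0545), and its arrays did not overlap either. Its call turned on the setting: it passed without stressed TIAR RIP replicate 2 (0.48, adjusted p = 0.0405), and with the same difference of 0.40 but a smaller pooled spread without stressed input replicate 1 (adjusted p = 0.038), without unstressed G3BP1 RIP replicate 2 (0.035) or replicate 3 (0.00843), and without both arrays that stand apart (0.00241). CAPRIN1 differed by 0.16 ± 0.08 (adjusted p = 0.281), with arrays just apart at 13.07 on either side, and G3BP2 by 0.13 ± 0.15 (adjusted p = 0.777), with overlap. Measured beyond the change of input, 0 of 4 members passed in the TIAR RIP, where 0.654% of rows did: UBAP2L was at 0.32 ± 0.11 (unadjusted p = 0.013, adjusted p = 0.234), CAPRIN1 at 0.14 ± 0.11 (0.656), G3BP2 at 0.05 ± 0.21 (0.951) and G3BP1 at -0.04 ± 0.18 (0.952). At an unadjusted threshold of 0.05 UBAP2L alone of the 4 would pass, and centring shifted the median of all rows by 0.11 and brought it to 0.20 (adjusted p = 0.41). Without both arrays that stand apart the values were 0.27, 0.12, -0.11 and -0.13 in the same order, none with an adjusted p under 0.172. The number of rows called here was unstable, at 144 with all arrays and between 15 and 734 on leaving out 1 array.

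Within the G3BP1 RIP the scaffold and CAPRIN1 mRNAs had negative changes with arsenite, of which that of CAPRIN1 passed with all arrays and all 3 passed without the array that stands apart. On the deposited scale 1 of 4 members fell, where 14.5% of rows were called, 10.4% as higher and 4.08% as lower: CAPRIN1 dropped by 0.40 ± 0.08 (1.32-fold, adjusted p = 0.00313), and its stressed arrays were all below the unstressed ones, as in 8.55% of all rows. G3BP2 was at -0.42 ± 0.15 (adjusted p = 0.083) and G3BP1 at -0.33 ± 0.13 (adjusted p = 0.103), each with unstressed replicate 3 inside the range of the stressed arrays. UBAP2L was at -0.07 ± 0.08 (adjusted p = 0.666). Without that replicate G3BP2 was at -0.61 ± 0.13 (adjusted p = 0.00527), G3BP1 at -0.49 ± 0.11 (adjusted p = 0.00515) and CAPRIN1 at -0.48 ± 0.07 (adjusted p = 0.000457), so that 3 of 4 members were called lower, where 9.56% of all rows were then called lower. Leaving out unstressed replicate 2 instead took G3BP1 to -0.21 (adjusted p = 0.333). UBAP2L remained uncalled at -0.12 ± 0.08 (adjusted p = 0.391). Without stressed input replicate 1, which narrows the pooled spread, G3BP2 also passed (adjusted p = 0.0388).

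With all arrays kept, the same 3 mRNAs fell when each value was taken relative to its array's median. On that scale G3BP2 read 2.03, 2.09 and 1.74 in the unstressed and 1.52, 1.42 and 1.48 in the stressed G3BP1 RIP. G3BP1 read 4.58, 4.72 and 4.41 against 4.18, 4.23 and 4.14, and CAPRIN1 4.83, 4.82 and 4.83 against 4.37, 4.30 and 4.45. No stressed array reached an unstressed one. UBAP2L read 4.89, 4.96 and 5.03 against 4.81, 4.81 and 4.86, apart by a smaller margin. Thus all 4 members were apart on this scale, as were 13.8% of all rows in this direction. The centred changes were -0.48 ± 0.11 for G3BP2 (adjusted p = 0.00492), -0.39 ± 0.09 for G3BP1 (adjusted p = 0.00659) and -0.45 ± 0.07 for CAPRIN1 (adjusted p = 0.000255), against -0.13 ± 0.07 for UBAP2L (adjusted p = 0.285); on this scale 7.99% of all rows were called lower. In a fit of the G3BP1 RIP arrays alone on the deposited scale CAPRIN1 lost its call (adjusted p = 0.108).

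**Figure D3:**
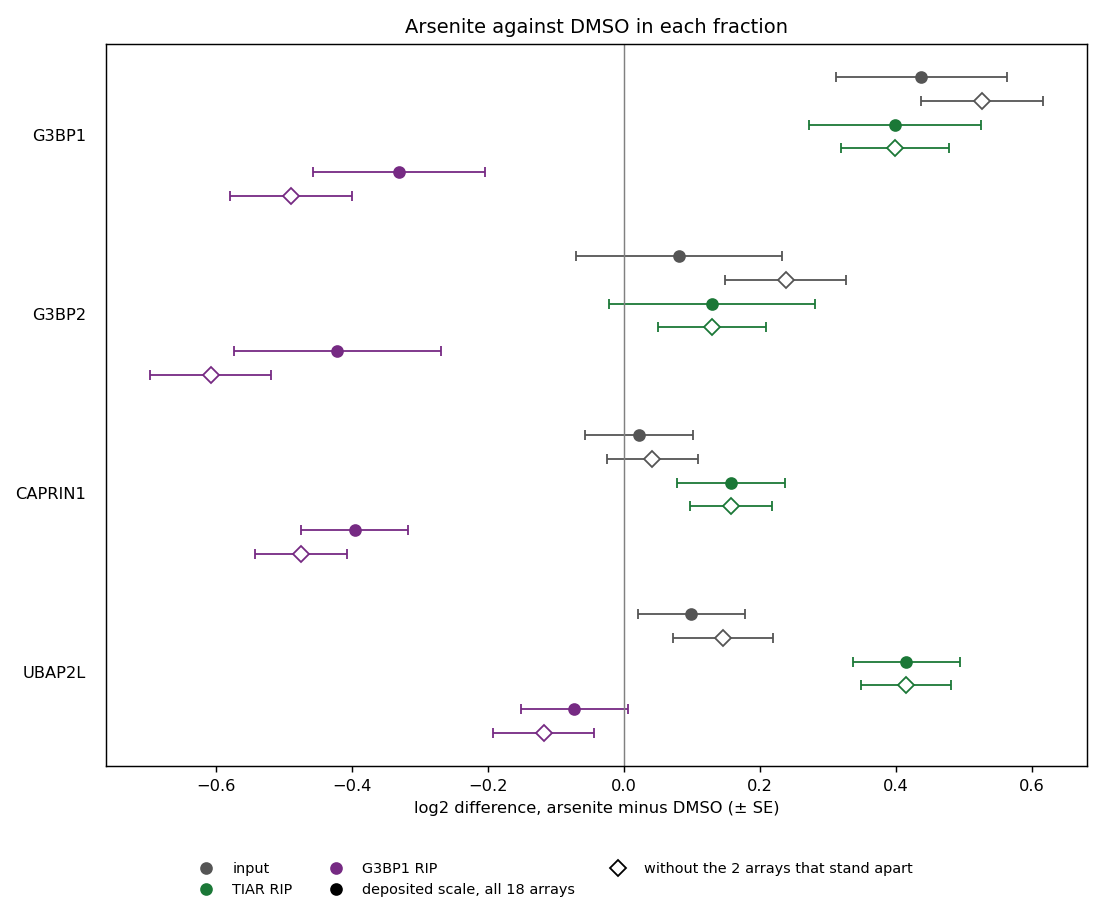
Log2 change with arsenite (horizontal axis, bars of 1 SE) of each member in input, the TIAR RIP and the G3BP1 RIP, with all 18 arrays (filled circles) and without the 2 arrays that stand apart (open diamonds). G3BP1, G3BP2 and CAPRIN1 lie left of 0 in the G3BP1 RIP, between -0.61 and -0.33, and right of 0 in the other fractions. In input with all arrays CAPRIN1 and G3BP2 are close to 0, at 0.02 and 0.08, and were not called. UBAP2L has the same signs, at -0.07 in the G3BP1 RIP with all arrays, and moves most in the TIAR RIP, at 0.42.

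The change in the G3BP1 RIP was then tested against that of input. Here 2 of 4 members were lower, G3BP1 and CAPRIN1, where 16.9% of rows were called, 14.3% as higher and 2.65% as lower. G3BP1 changed by 0.44 in input and -0.33 in the RIP, a difference of -0.77 ± 0.18 (adjusted p = 0.00791) at the 2.34th percentile of all rows. For CAPRIN1 the changes were 0.02 and -0.40, a difference of -0.42 ± 0.11 (adjusted p = 0.0179). G3BP2 was at -0.50 ± 0.21 (adjusted p = 0.134) and UBAP2L at -0.17 ± 0.11 (adjusted p = 0.344). G3BP2 passed without stressed input replicate 1 (-0.66, adjusted p = 0.0344), without unstressed G3BP1 RIP replicate 3 (-0.69, adjusted p = 0.0145) and after centring (-0.65, adjusted p = 0.00656), which shifts the median of all rows by 0.15. CAPRIN1 lost its call without stressed G3BP1 RIP replicate 2 (-0.38, adjusted p = 0.0515) and in a fit of these 4 groups alone (adjusted p = 0.0525), and UBAP2L gained one after centring (-0.32, adjusted p = 0.0414). Without both arrays that stand apart the values were -1.02 for G3BP1, -0.85 for G3BP2, -0.52 for CAPRIN1 and -0.26 for UBAP2L (adjusted p = 0.000131, 0.000424, 0.00174 and 0.0925).

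The arsenite changes of the RIPs, which share no arrays, were also tested against each other. They differed in 3 of 4 members, all with the more positive change in the TIAR RIP, where 13.6% of rows were called and 5.05% in that direction. The difference was 0.73 ± 0.18 for G3BP1 (0.40 in TIAR and -0.33 in G3BP1; adjusted p = 0.0128), 0.55 ± 0.11 for CAPRIN1 (0.16 and -0.40; adjusted p = 0.00388) and 0.49 ± 0.11 for UBAP2L (0.42 and -0.07; adjusted p = 0.00853). G3BP2 had a difference of the same size with a larger error, 0.55 ± 0.21 (adjusted p = 0.116), and passed without unstressed G3BP1 RIP replicate 3 (0.74 ± 0.18, adjusted p = 0.00952). The other 3 kept their calls under every alternative run, and without both arrays that stand apart they were at 0.89 for G3BP1, 0.63 for CAPRIN1 and 0.53 for UBAP2L. All 4 differences lay between the 89.8th and the 94.8th percentile of all rows.

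Because a shift common to a whole array cancels between rows of that array, the members were also compared pairwise within arrays. These pairs were chosen after the values had been seen, and only changes of the within-array difference between groups carry meaning, not its level. The difference G3BP1 minus G3BP2 was 1.97, 1.91 and 1.89 in the unstressed input and 2.42, 2.24 and 2.18 in the stressed input. In the TIAR RIP it was 1.66, 1.60 and 1.78 without and 1.84, 1.93 and 2.08 with arsenite. In the G3BP1 RIP it was 2.55, 2.63 and 2.67 without and 2.65, 2.81 and 2.66 with arsenite. All 6 G3BP1 RIP arrays thus lay above all 12 others, and unstressed replicate 3 did not stand apart on this measure. Against input, the difference was 0.69 higher in the G3BP1 RIP without and 0.43 higher with arsenite, and in the TIAR RIP it shifted by -0.24 and -0.33. With arsenite the difference moved by 0.36 in input, 0.27 in the TIAR RIP and 0.09 in the G3BP1 RIP, where the arrays overlapped. With 3 arrays against 3, the two-sided exact permutation p cannot go below 0.1, which was reached in 8 of 9 comparisons of this pair (0.112 after adjustment over 18), so none of these shifts passed the threshold. How often other pairs of genes come apart in this way was not counted, so the separation is not read as particular to this pair.

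For UBAP2L minus CAPRIN1 the within-array difference rose from -0.37, -0.21 and -0.29 in the unstressed input to 0.44, 0.51 and 0.41 in the stressed G3BP1 RIP, the highest group. It was -0.27, -0.16 and -0.22 in the stressed input and 0.05, 0.14 and 0.20 in the unstressed G3BP1 RIP. In the TIAR RIP it was -0.20, 0.03 and -0.10 without and 0.36, 0.06 and 0.09 with arsenite. Arsenite moved it by 0.26 in the TIAR RIP and by 0.32 in the G3BP1 RIP, with no overlap of arrays in either, and by 0.08 in input, with overlap. The exact permutation p was 0.1 in each RIP, the smallest possible, and 0.112 after adjustment, so neither shift passed the threshold. Here too, the share of other gene pairs without overlap was not counted.

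**Figure D4:**
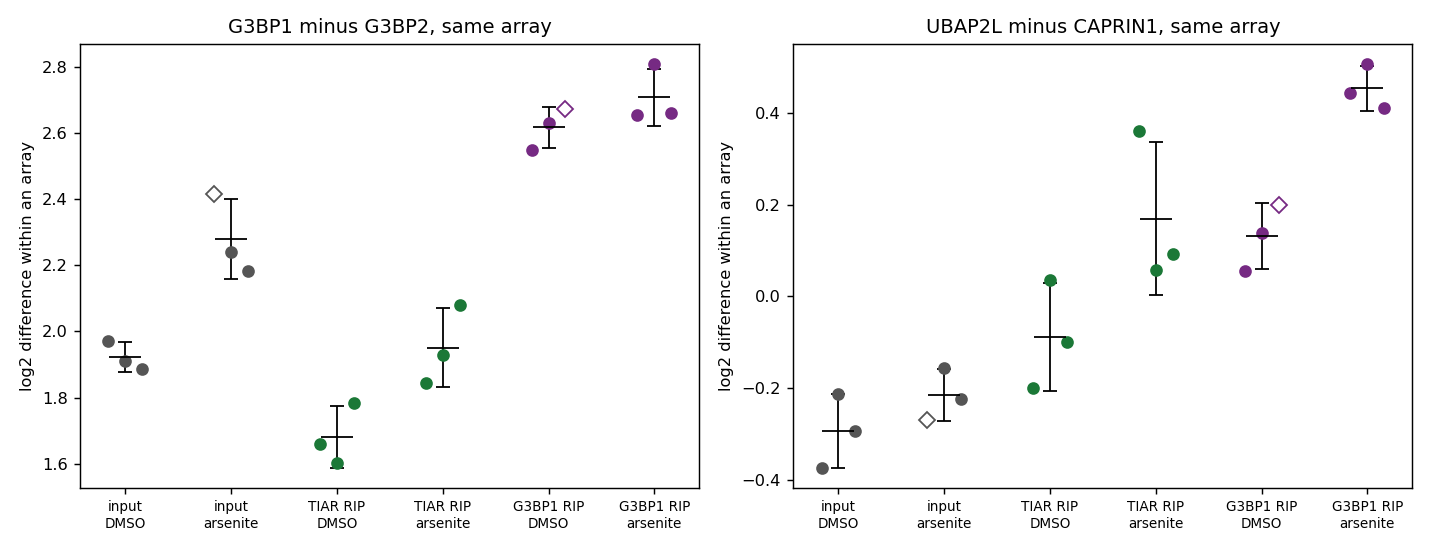
Difference between the log2 signals of 2 members on the same array (vertical axis) by group, with a point per array, the mean and 1 SD (n = 3); open diamonds mark the arrays that stand apart. G3BP1 minus G3BP2 is at 2.55 or above in every G3BP1 RIP array and at 2.42 or below elsewhere, and UBAP2L minus CAPRIN1 is highest, at 0.41 to 0.51, in the stressed G3BP1 RIP.

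To place the members among related mRNAs, a list of 26 further genes whose proteins bind or accompany G3BP was used, of which 17 had a row of a single symbol and are described here. The list holds relatives of the members (UBAP2, CAPRIN2), ataxin-2 proteins, the FMR1 family of translational regulators, PRRC2 proteins, readers of N6-methyladenosine (YTHDF) and the translational repressor PUM2. Against input the unstressed TIAR RIP held 12 of 17 higher and 1 lower, with a median of 0.75 beside -0.05 for all rows, and the stressed TIAR RIP held 13 higher and 1 lower (median 0.72 beside -0.08). Among all rows 16.8% were called higher and 23.8% lower without arsenite, and 20.3% and 23.5% with it. UBAP2, the paralogue of UBAP2L, was higher by 1.22 ± 0.06 without and 1.44 ± 0.06 with arsenite (adjusted p = 1.16e-09 and 2.14e-09). ATXN2L (0.96 and 1.20) and ATXN2 (1.00 and 1.35), which encode ataxin-2 family RNA binders, were higher in both conditions. LARP4B was higher by 1.55 (2.93-fold) without and by 2.84-fold with arsenite, and YTHDF3 by 1.28 and 1.49.

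In the G3BP1 RIP 9 of 17 were higher and 4 lower without arsenite (median 0.30 beside 0.00 for all rows), and 8 were higher and 1 lower with it (median 0.26 beside 0.03). Among all rows 20.7% were called higher and 19.2% lower without arsenite, and 29.3% and 15.2% with it. FXR2 led: it was higher by 1.44 ± 0.14 without (adjusted p = 9.59e-07) and by 1.79 ± 0.14 with arsenite (adjusted p = 1.08e-07). PRRC2B (1.13 and 1.57), LARP4B (1.33 and 1.46) and UBAP2 (0.42 and 0.65) were higher too, and ATXN2L was 0.26 above input without and 0.92 with arsenite. The 4 that were lower without arsenite were YTHDF1 (-0.72), NUFIP2 (-0.69), CAPRIN2 (-0.50), the paralogue of CAPRIN1, and LSM14A (-0.48), and the 1 that was lower with it was LSM14A (-0.38). FXR2 was also the 1 partner called lower in the TIAR RIP on the deposited scale, at -0.86 ± 0.14 without (adjusted p = 0.000137) and -0.41 ± 0.14 with arsenite (adjusted p = 0.0289); it is named for this after its values were seen. Between the RIPs FXR2 and PRRC2B, at -2.30 and -1.18 without and -2.20 and -1.44 with arsenite, were the 2 partners lower in the TIAR RIP, while 11 were higher without and 9 with arsenite, UBAP2 among them (0.80 and 0.79). Of all rows 19.3% and 15.6% were higher and 27.5% and 28.7% lower, and the list's medians were 0.70 and 0.42 beside -0.05 for all rows in either condition. After median centring 15 of 17 were higher and 2 lower with arsenite, where 6084 and 5070 of all 22011 rows were.

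With arsenite 5 of the 17 partners fell in input and the other 12 were not called, with a median of -0.19 beside -0.03 for all rows. Among all rows 11.2% fell and 2.52% rose. PUM2 fell by 1.24 ± 0.20 (adjusted p = 0.000959), PRRC2B fell by 0.86 ± 0.12 (adjusted p = 0.000301), FMR1 fell by 0.73 ± 0.16 (adjusted p = 0.00611), YTHDF1 fell by 0.53 ± 0.13 (adjusted p = 0.0147) and ATXN2L fell by 0.36 ± 0.08 (adjusted p = 0.00681). On leaving out the stressed input and G3BP1 RIP arrays that stand apart, 7 fell and 1 rose, as 2960 and 1557 of all rows did. In the TIAR RIP 1 rose, ATXN2 at 0.34, and 5 fell, PRRC2B at -0.68, YTHDF1 at -0.56, PUM2 at -0.81, LARP4B at -0.49 and LSM14A at -0.36, with a median of -0.12 beside -0.00 for all rows, of which 6.15% rose and 5.71% fell. In the G3BP1 RIP 2 rose (ATXN2L, and YTHDF1 by 0.44) and 3 fell, with a median of -0.05 beside 0.01 for all rows. Of all rows in that RIP, 10.4% rose and 4.08% fell. DDX3X, which encodes an RNA helicase, fell by 0.85 ± 0.15 (adjusted p = 0.00168), with YTHDF3 (-0.50) and PRRC2B (-0.42), and ATXN2L rose by 0.31 ± 0.08 (adjusted p = 0.0156). There 8 fell and 2 rose on leaving out those arrays, as 3016 and 2448 of all rows did. Beyond the change of input, DDX3X was lower in the G3BP1 RIP (-0.89 ± 0.22, adjusted p = 0.0111), as G3BP1 and CAPRIN1 were, and ATXN2L (0.66), YTHDF1 (0.98) and PUM2 (1.21) were higher. With all arrays 14.3% of all rows were called higher and 2.65% lower beyond input in this RIP. Without both arrays the partner counts went from 3 higher and 1 lower to 3 and 4. In that setting 2887 and 2155 of all 22011 rows were higher and lower.

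**Figure D5:**
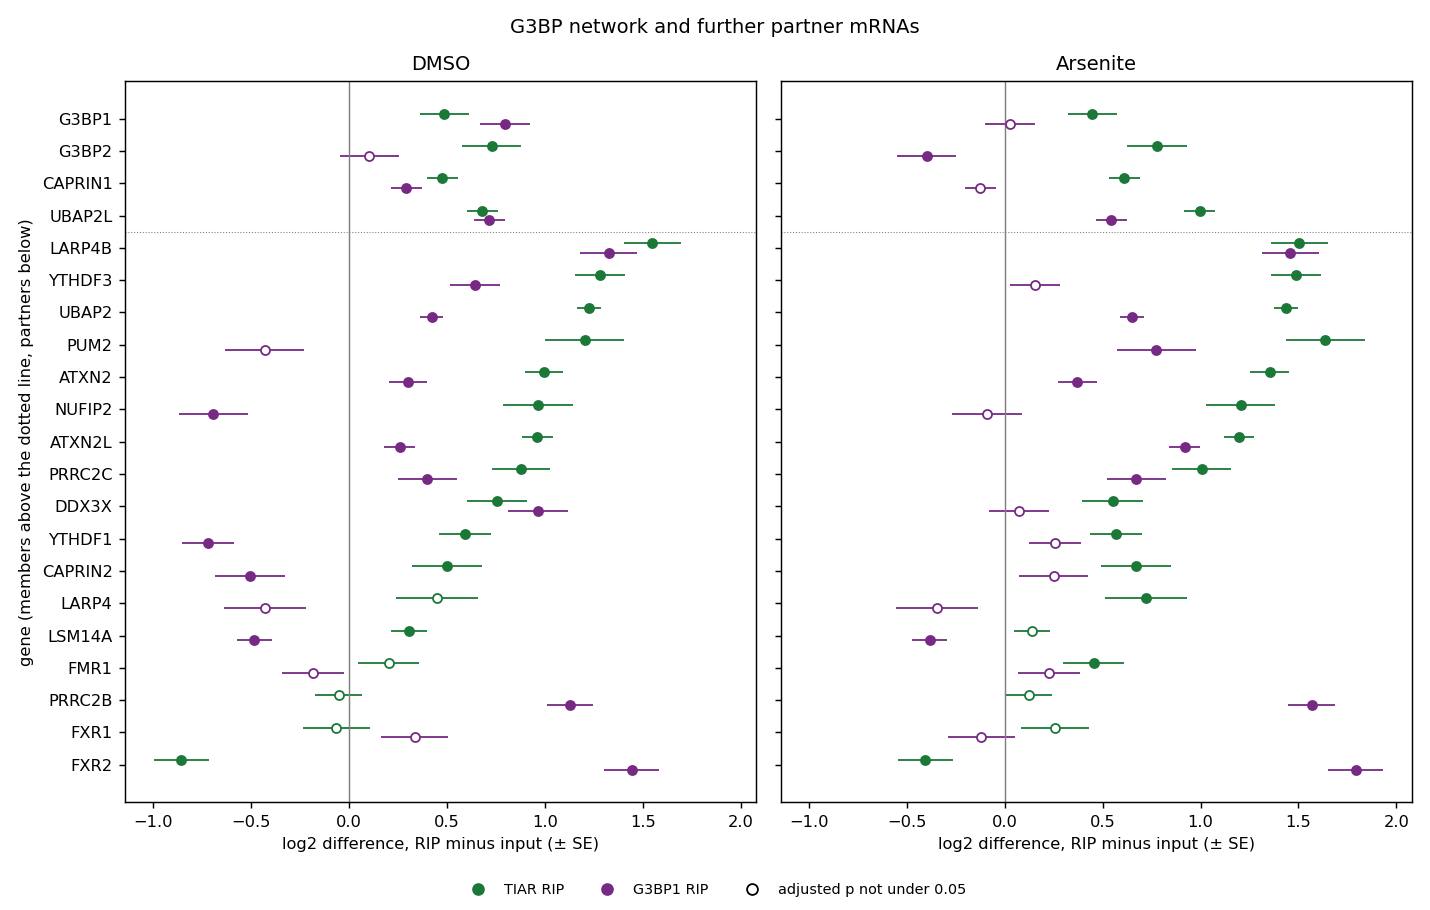
Log2 difference of the TIAR RIP and the G3BP1 RIP from input (horizontal axis, bars of 1 SE) for the 4 members (above the dotted line) and the 17 measured partner genes (below it), without (left) and with arsenite (right); open points did not pass the test. FXR2 and PRRC2B lie far right in the G3BP1 RIP, at 1.44 and 1.13 without arsenite, and left of or near 0 in the TIAR RIP.

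Over the 18 arrays G3BP2 and CAPRIN1 had the most similar patterns of any pair of members (Pearson r = 0.918), followed by G3BP1 and UBAP2L (0.822), while G3BP1 and its paralogue G3BP2 were the least alike (0.534). The arrays fall into 6 groups of 3, so these values mainly restate the group means and carry no test. Among the other 14231 genes, the pattern of G3BP1 was most like EPM2AIP1 (0.972), DPYSL2 (0.923) and ZC3HAV1 (0.921). G3BP2 was nearest to LRCH2 (0.983), GOLPH3L (0.978) and BBS10 (0.976), and CAPRIN1 to MAPRE2 (0.986), LRCH2 (0.962) and PRRC1 (0.955), so that LRCH2 was among the 3 nearest genes of both. UBAP2L was nearest to LAPTM4B (0.98), PEG10 (0.969) and FAF2 (0.967).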

How the data were processed

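The deposited log2 values were made by the authors with RMA (Affymetrix Expression Console), per the submitters' processing notes. Neither the version nor a genome build is given in the sources used here. Per the labels' protocols, 6 µg of total RNA was labelled per array. Rows took their genes from the platform table: 14432 of 22011 had a single symbol, 2408 several and 5171 none. RefSeq (GRCh38.p14) changed 0 symbols. For a gene with several rows the brightest was kept; each member had 1, so averaging rows gives the same values.

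With limma 3.58.1 in R 4.3.3 (lmFit, eBayes), 1 mean for each of 6 groups was estimated per row over 22011 rows and 18 arrays (12 residual and 2.61 prior degrees of freedom; no filter). P-values are two-sided and Benjamini-Hochberg adjusted over all rows within each of 12 comparisons; a call is an adjusted p under 0.05. The number of arrays limits the precision. Tested on simulated data for the input comparison (22011 rows), the fit recovered 68% of log2 rises of 1 and 80% of falls of 1. Each rate rests on 50 changed rows with independent normal noise, so the gap between the rates carries no meaning. Far fewer rows were changed than the 3026 called in the data. Changes smaller than 1, such as most member differences, were not simulated. Genes named beside the members are up to 4 called partners of smallest p per comparison, plus members of the small counts given in the text, named after their values were seen, and the 3 genes most correlated with each member. The members and lists were chosen with earlier results of these data known.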

Additional observations from a re-analysis of the deposited data

Results flagged for a closer look

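In 5 cases the arsenite change of a member differed between fractions by an interaction term (limma, Benjamini-Hochberg adjusted). In the G3BP1 RIP against input, G3BP1 differed by -0.77 ± 0.18 (adjusted p = 0.00791) and CAPRIN1 by -0.42 ± 0.11 (adjusted p = 0.0179), where 16.9% of all rows were called. The CAPRIN1 call was lost without stressed G3BP1 RIP replicate 2 (adjusted p = 0.0515) and in a fit of the compared groups alone (adjusted p = 0.0525). In the TIAR RIP against the G3BP1 RIP, G3BP1 differed by 0.73 ± 0.18 (adjusted p = 0.0128), CAPRIN1 by 0.55 ± 0.11 (adjusted p = 0.00388) and UBAP2L by 0.49 ± 0.11 (adjusted p = 0.00853). For that comparison 13.6% of all rows were called. In the TIAR RIP against input 0 of 4 members and 0.654% of all rows were called.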

How the results depend on the processing

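The 9 settings other than leaving out a single array, averaging the rows of a gene included, gave 432 values for the members, of which 389 kept their side of the threshold, 7 lost a call, 36 gained one and 0 called values changed sign, while 10 uncalled values did. Each member has 1 row, so the 48 values from averaging could only be kept and do not bear on stability. Over 864 values with 1 array left out, 833 kept their side, 19 lost a call and 12 gained one. Counts of called members moved by more than 1.5 times as follows. For arsenite in input (1 on the deposited scale) the count was 0 with the replicate number as a block, 0 with the compared groups fitted alone and 2 with quantile normalization (G3BP1 and G3BP2). Of all 22011 rows 3026 were called on the deposited scale, and 2638, 1487 and 3630 in those settings. In the TIAR RIP (1) it was 3 with array weights and 2 with a robust prior that follows intensity, the groups alone, the lowest 25% of rows left out, median centring, quantile normalization, or without both arrays that stand apart. Calls over all rows went from 2609 to 5485 with weights. They were 2684, 3362, 2857, 3725, 3957 and 5057 in the other settings, in that order. For the G3BP1 RIP (1) it was 0 with the groups alone and 3 with array weights, centring, quantile normalization or without both arrays. Rows called lower went from 899 to 261, 3386, 1759, 2002 and 3016 in these settings, in that order. For the stressed G3BP1 RIP against input (2) it was 1 with the replicate block and 1 with the groups alone, where calls over all rows went from 9779 to 9419 and 8387. Between the unstressed RIPs (1) it was 3 with the prior that follows intensity and 2 with array weights, the lowest rows left out, centring, quantile normalization or without both arrays. All-row calls went from 10310 to 10282, 13284, 9897, 10928, 10695 and 11771 in these settings, in that order. For the G3BP1 RIP beyond input (2) it was 1 with the groups alone and 4 with centring, where rows called lower went from 584 to 371 and 1475. Smaller moves were 3 to 2 (groups alone) or 4 (weights, or without both arrays) for the unstressed G3BP1 RIP against input, 2 to 3 with centring for the stressed one, 2 to 3 for the G3BP1 RIP beyond input (weights, quantile normalization, or without both arrays) and 3 to 4 for the RIP changes against each other (those settings or centring). The causes were not tested. Leaving out 1 array at a time gave 0 to 1 for arsenite in input, 1 to 2 in the TIAR RIP, 1 to 3 in the G3BP1 RIP, 1 to 2 for the stressed G3BP1 RIP against input, 1 to 2 between the unstressed RIPs, 1 to 3 for the G3BP1 RIP beyond input and 3 to 4 for the RIP changes against each other.

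No pairing of arrays by replicate number was found. In none of the 9 comparisons of 2 groups did all 3 same-numbered pairs correlate over 0.1, nor did every array correlate best with its own number. Same-numbered arrays of the unstressed TIAR and G3BP1 RIPs were at 0.35, 0.01 and 0.42, so a pairing is not excluded. With the replicate block, G3BP1 in input had an adjusted p = 0.0511 and G3BP2 in the stressed G3BP1 RIP against input 0.0595; the block changed no other call of a member.

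Counts over all rows that moved by more than 1.5 times were, for arsenite in input, 3026 against 1487 with the groups alone and 5328 with array weights; in the TIAR RIP, 2609 against 5485 with weights, 3957 with quantile normalization and 5057 without both arrays; in the G3BP1 RIP, 3189 against 866 with the groups alone, 6489 with weights and 5464 without both arrays. Beyond input they were 144 in the TIAR RIP against 55 with the block, 1472 with weights, 219 without the lowest rows, 239 with quantile normalization and 732 without both arrays, and 3721 in the G3BP1 RIP against 5960 with weights. Leaving out 1 array at a time gave 15 to 734 for the TIAR RIP beyond input and 1903 to 4607 for arsenite in input. The RIP changes differed in 2994 rows, against 6349 with weights and 5447 without both arrays. Median centring moved the share of called rows that were higher from 18.3% to 34.3% for arsenite in input, 71.8% to 58.3% in the G3BP1 RIP, 41.3% to 56.9% for the unstressed TIAR RIP and 65.9% to 48.9% for the stressed G3BP1 RIP against input, 41.3% to 54.4% and 35.3% to 54.5% between the unstressed and the stressed RIPs, and 92.4% to 79.1% and 84.3% to 65.9% beyond input for TIAR and G3BP1. Without both arrays it was 44.8% in the G3BP1 RIP, which turned the majority, 34.5% in input, 81.1% and 57.3% beyond input for TIAR and G3BP1, and 54.3% against 37.1% for the RIP changes against each other. Leaving out both arrays was planned with earlier results of these data known.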
